A study of Drosophila melanogaster with 8 samples.

Results

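RNA bound by the J2 antibody was compared between the mitochondrial and the cytosolic fraction of larvae that lack the mitochondrial polynucleotide phosphorylase. Of the 8 libraries in the series, 4 belong to this comparison, 2 from dmpnpaseKO mitochondria and 2 from dmpnpaseKO cytosol, taken by the genotype and fraction in their labels. The dmpnpaseKO larvae are homozygous for a frame-shift allele of CG11337, and the control larvae, which give 2 mitochondrial and 2 cytosolic libraries of reference, carry no such allele (genotype ;;). All larvae were in the wDah background and 4 days old, counted after egg laying in the methods. The loss of PNPase is present in every cell of the larva, and each fraction is made from mixed tissues. The labels do not say whether replicates came from separate pools of larvae or whether a mitochondrial and a cytosolic library came from the same larvae, so p-values measure only the spread between these libraries, which may be technical.

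PNPase is an exoribonuclease that shortens RNA from the 3′ end, and in mitochondria it works with the helicase SUV3. Both strands of the mitochondrial genome are transcribed over long stretches, so complementary RNA is made and can pair when it is not degraded. J2 binds double-stranded RNA regardless of sequence. Mitochondrial rRNAs, nuclear rRNAs and many mRNAs also fold on themselves, and such RNA can be recovered too. The cytosol should hold little mitochondrial RNA while the organelles are intact. A crude mitochondrial pellet can hold ribosomes and mRNA attached to the outer membrane or to the endoplasmic reticulum. The paper describes the fractions used here as purified and reports a Western blot check of their purity.

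The authors quantified reads with salmon and deposited TPM, the length-corrected share of the reads that falls on a gene, with 13970 genes in the table. TPM add up to one fixed total in every library, so they hold no depth and no intervals for counting error are given. Strands are not separated in the values used here, and sense and antisense RNA of a mitochondrial gene are not told apart. No libraries without immunoprecipitation were analysed here, so a value depends on both abundance and recovery by J2. The gene targeted in the knockout, named PNPase in the annotation (CG11337, FBgn0039846, chromosome 3R from 31401560), was listed at 0.0415 and 0 TPM in dmpnpaseKO mitochondria, 0 in both dmpnpaseKO cytosol libraries, 0.0197 and 0 in control mitochondria and 0 in both control cytosol libraries. These values are too low to check the genotype labels.

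The libraries differed in how many genes they list above 0 TPM, with 11051 and 7681 genes in dmpnpaseKO mitochondria against 4736 and 61 in dmpnpaseKO cytosol. Among nuclear-encoded genes outside the rRNA pseudogenes, dmpnpaseKO mitochondria listed 11019 and 7649 above 0, against 4704 and 39 in the cytosol. In cytosol replicate 2, the nuclear genes listed at 1 TPM or more had values that ran inversely with transcript length. The product of TPM and the longest transcript in kilobases lay between 57.9 and 351 for the 33 such genes of known length, and 25 of the 33 were within a factor of 2 of the lowest. The median ratio of cytosol replicate 2 to cytosol replicate 1 was 38.3 over the 35 nuclear genes above 0 in all 4 dmpnpaseKO libraries. A value of 0 in cytosol replicate 2 is therefore not read as absence, and the main results below are also given without that library.

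**Figure D1:**
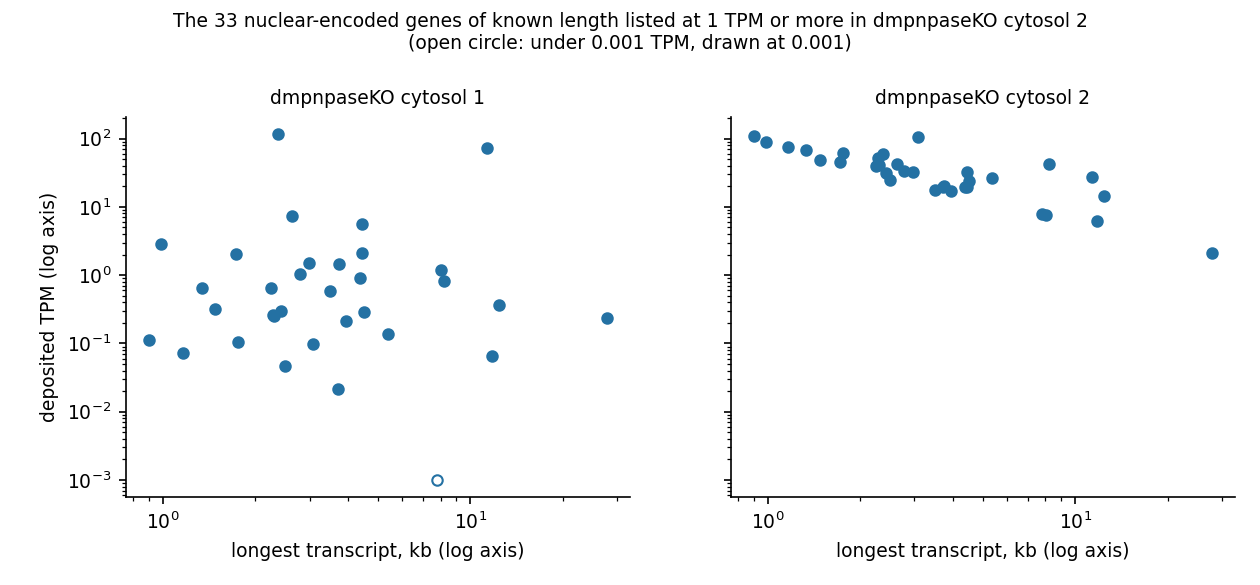
Deposited TPM of the 33 nuclear-encoded genes of known length listed at 1 TPM or more in dmpnpaseKO cytosol replicate 2, plotted against the length of the longest transcript in kilobases (both axes log), in cytosol replicate 1 (left) and replicate 2 (right). Each point is a gene, and in replicate 2 the points fall along a line of roughly constant TPM times length (57.9 to 351) that is not seen in replicate 1.

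Mitochondrial mRNAs and nuclear-encoded RNA both took a larger share of TPM in dmpnpaseKO mitochondria than in dmpnpaseKO cytosol, and mitochondrial rRNA did not. The 11 mitochondrial mRNAs analysed took 4.69% and 17.4% of TPM in the mitochondrial libraries (mean 11.05% ± 9.0, SD, n = 2), against 2.13% and 2.01% in the cytosolic libraries (2.07% ± 0.081, SD, n = 2). Nuclear-encoded genes took 1.18% and 0.586% in mitochondria (0.885% ± 0.423, SD, n = 2), against 0.159% and 0.149% in cytosol (0.154% ± 0.0067, SD, n = 2). For both classes the mitochondrial libraries lay above both cytosolic ones (exact two-sided permutation test, p = 0.333, below which a comparison of 2 with 2 cannot go). The difference for mitochondrial mRNA, 8.98 percentage points, was 15.3 without mitochondria replicate 1 and 2.61 without replicate 2, and that for nuclear-encoded RNA, 0.731, was 0.432 and 1.03.

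The 12S and 16S mitochondrial rRNAs together took 3.24% and 9.01% in dmpnpaseKO mitochondria, against 13.8% and 8.50% in dmpnpaseKO cytosol. These ranges overlapped (p = 0.667, exact permutation test, n = 2 each), so mitochondrial rRNA did not mark the mitochondrial fraction in these libraries, and how much of it reached the cytosol through broken organelles was not tested. The ratio of mitochondrial mRNA to mitochondrial rRNA separated the fractions more clearly than either share. It was 1.45 and 1.93 in mitochondria and 0.154 and 0.237 in cytosol. On the log2 scale the ratio averaged 0.74 ± 0.30 in mitochondria and −2.39 ± 0.44 in cytosol (SD, n = 2 each), a difference of 3.13 that was several times the spread between replicates, with p = 0.333 in the exact permutation test. In control larvae this ratio was 0.258 and 0.0762 for the mitochondrial and 0.00057 and 0.00107 for the cytosolic libraries, so both dmpnpaseKO fractions lay above their control fractions.

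Set against nuclear-encoded RNA, mitochondrial mRNA did not separate the fractions of dmpnpaseKO larvae. The ratio of summed mitochondrial mRNA to summed nuclear-encoded TPM was 3.96 and 29.7 in dmpnpaseKO mitochondria, and the cytosolic values, 13.4 and 13.5, lay between them (p = 1, exact permutation test, n = 2 each). The control larvae had ratios of 5.13 and 24.6 in their mitochondrial libraries, against 0.292 and 0.721 in their cytosolic libraries, without overlap. Of the TPM outside rRNA, mitochondrial mRNAs made up 79.8% and 96.7% in dmpnpaseKO mitochondria and 93.1% in each dmpnpaseKO cytosol library.

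**Figure D2:**
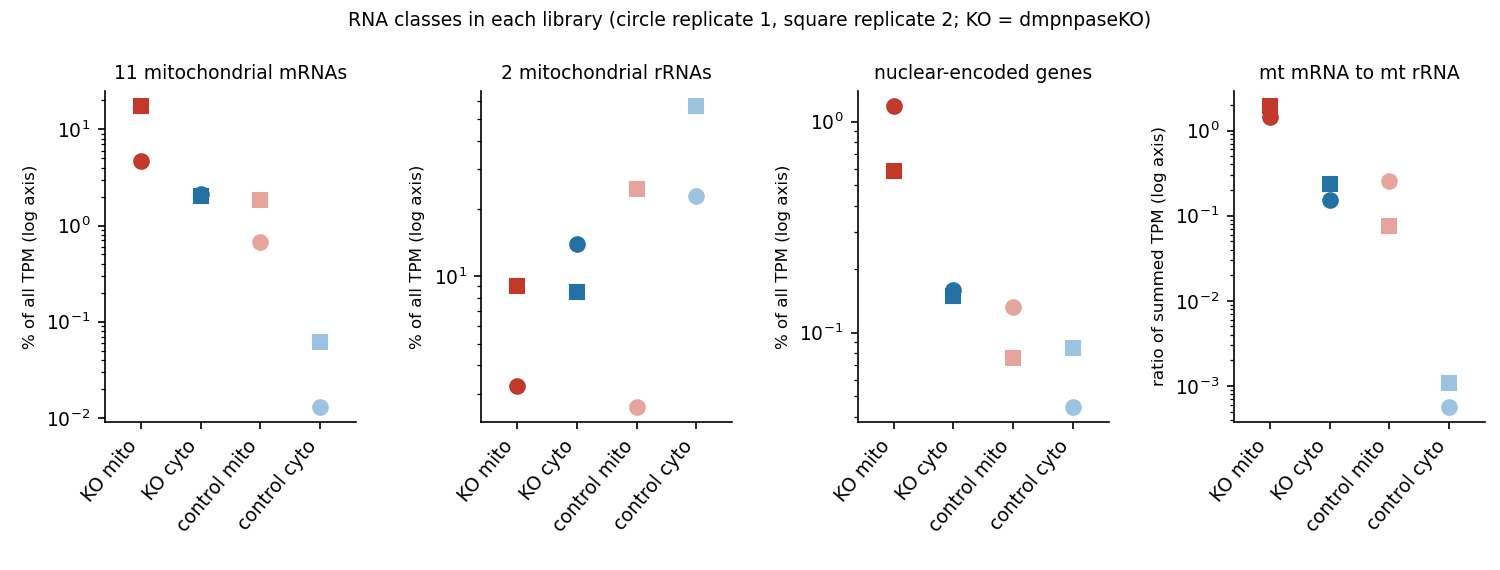
Share of all TPM (%, log axis) on the 11 mitochondrial mRNAs, the 2 mitochondrial rRNAs and nuclear-encoded genes, and the ratio of mitochondrial mRNA to mitochondrial rRNA (log axis), for each library. Circles are replicate 1 and squares replicate 2. The dmpnpaseKO mitochondria lie above dmpnpaseKO cytosol for mitochondrial mRNA, nuclear-encoded RNA and the ratio (1.45 and 1.93 against 0.154 and 0.237), and the mitochondrial rRNA shares overlap.

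Single genes were compared after scaling the libraries on 8 rRNA pseudogenes named in the methods, which are copies of nuclear rRNA genes and take most of the TPM in each dmpnpaseKO library. The scale is log2(scaled TPM + 1), on which the change of a low gene is understated. Genes averaging 1 TPM or more across the 8 libraries, 475 in all, were tested with limma, with 4 group means and Benjamini-Hochberg adjustment at 0.05. They hold 11 mitochondrial mRNAs, 2 mitochondrial rRNAs, 19 features of nuclear rRNA and 443 other nuclear-encoded genes.

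In dmpnpaseKO larvae, 385 genes were higher in mitochondria than in cytosol (81.1% of those tested) and 4 were lower (0.842%). Without cytosol replicate 2, 362 were higher (76.2%) and 1 was lower (0.211%), and 345 genes were higher in both fits. Nearly all of these are nuclear-encoded. The calls depend on the scaling. Median-of-ratios scaling called 221 higher and 9 lower, and scaling on the sum of nuclear-encoded TPM, which removes the difference in the nuclear share itself, called 4 higher and 0 lower.

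The 11 mitochondrial mRNAs encode core subunits of respiratory complexes I, III and IV and of the ATP synthase. They had a median log2 difference of 2.52 between the fractions (range −0.43 to 7.31), and 2.46 without cytosol replicate 2. The library medians on the scale of log2(scaled TPM + 1) were 11.27 and 13.37 in dmpnpaseKO mitochondria (12.32 ± 1.49, SD, n = 2), against 9.64 and 9.74 in dmpnpaseKO cytosol (9.69 ± 0.072, SD, n = 2). The 2.63 between the means exceeds the spread between replicates, with p = 0.333 (exact permutation test, n = 2 each). Leaving out mitochondria replicate 1 or replicate 2 gave 3.69 or 1.58, and scaling on the sum of nuclear-encoded TPM gave 0.086. By limma, 1 of the 11 mRNAs passed the threshold (ND3, also the only one with an unadjusted p under 0.05), and 0 passed without cytosol replicate 2, where 1 had an unadjusted p under 0.05 and the smallest adjusted p was 0.0561.

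The mRNAs for which both mitochondrial libraries lay above both cytosolic libraries were 7 of the 11, ATPase6, CoII, CoIII, Cyt-b, ND1, ND3 and ND5. Those of the cytochrome oxidase and ATP synthase segment agreed between the mitochondrial replicates. CoIII, a core subunit of complex IV (mitochondrial genome, 4736 to 5524, plus strand), had 10795 and 11283 TPM in dmpnpaseKO mitochondria, against 1341 and 976 TPM in cytosol. ATPase6, the proton channel subunit of the ATP synthase (4062 to 4736, plus strand), had 4809 and 5918 TPM in mitochondria, against 592 and 320 TPM in cytosol. Both genes were well separated between the fractions and close between replicates, yet neither passed limma's test. That test shares its spread over the 4 groups, control libraries included. Control cytosol had 21.6 and 69.0 TPM of CoIII and 6.84 and 33.2 TPM of ATPase6. The log2 difference was 3.38 (SE 1.90, limma adjusted p = 0.112) for CoIII and 3.72 (SE 2.18, limma adjusted p = 0.126) for ATPase6. Without cytosol replicate 2 the differences were 3.11 (adjusted p = 0.071) and 3.24 (adjusted p = 0.0864).

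ND3, a subunit of complex I (5608 to 5961, plus strand), had 2169 and 2243 TPM in dmpnpaseKO mitochondria, against 198 and 0 TPM in cytosol. Its call rests on the value of 0 in cytosol replicate 2, since the log2 difference of 7.31 (SE 2.58, limma adjusted p = 0.0168) became 3.54 (SE 1.45, adjusted p = 0.0561) without that library. CoII, which carries the copper centre that accepts electrons from cytochrome c (3083 to 3767, plus strand), had 6938 and 9618 TPM in mitochondria, against 1111 and 801 TPM in cytosol. Its ranges were separate (log2 difference 3.23, SE 2.01, limma adjusted p = 0.15, and 2.94, SE 1.68, adjusted p = 0.148, without cytosol replicate 2).

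On the minus strand, ND1 of complex I (11721 to 12659) had 2848 and 6596 TPM in dmpnpaseKO mitochondria, against 782 and 523 TPM in cytosol. ND5 (6409 to 8125) had 2379 and 8467 TPM in mitochondria, against 853 and 835 TPM in cytosol. Cyt-b, the mitochondrially encoded subunit of complex III (10499 to 11635, plus strand), had 5150 and 17381 TPM in mitochondria, against 3286 and 3343 TPM in cytosol. The fractions did not overlap for these 3 mRNAs, but for Cyt-b and ND5 mitochondria replicate 1 lay closer to the cytosolic libraries than to mitochondria replicate 2. None passed limma's test (adjusted p of 0.236, 0.305 and 0.444, and 0.177, 0.331 and 0.403 without cytosol replicate 2).

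For the other 4 mRNAs the fractions overlapped. CoI, the catalytic subunit of complex IV (1474 to 3009, plus strand), had 8788 and 83383 TPM in dmpnpaseKO mitochondria, against 9098 and 8082 TPM in cytosol. ND4 (8207 to 9545, minus strand) had 2213 and 17157 TPM in mitochondria, against 2747 and 2443 TPM in cytosol. In both genes mitochondria replicate 2 stood alone and replicate 1 was at the level of the cytosol. ND2 (240 to 1263, plus strand) had 656 and 9701 TPM in mitochondria, against 788 and 1600 TPM in cytosol. ND6 (9971 to 10495, plus strand) had 115 and 2399 TPM in mitochondria, against 487 and 1219 TPM in cytosol. For ND2 and ND6 the lowest of the 4 libraries was mitochondria replicate 1 and the highest mitochondria replicate 2. The limma differences of CoI, ND4 and ND2 were 1.77, 1.36 and 1.28 and turned negative without mitochondria replicate 2. That of ND6 was −0.43 and turned positive without mitochondria replicate 1 or without cytosol replicate 2.

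**Figure D3:**
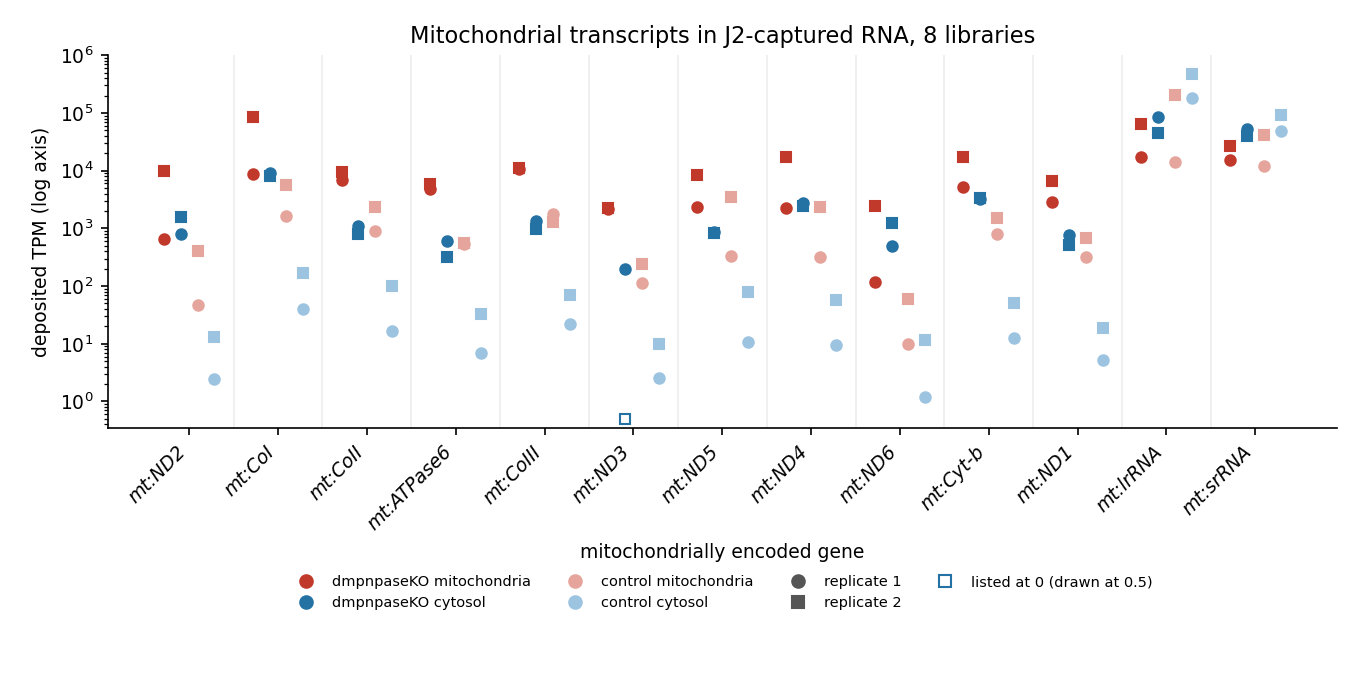
Deposited TPM (log axis) of the 13 mitochondrially encoded genes in each of the 8 libraries, in order along the genome for the mRNAs, with the 2 rRNAs at the right. Circles are replicate 1, squares replicate 2, and an open symbol a value listed at 0. CoIII and ATPase6 have close replicates and separate fractions in dmpnpaseKO larvae, CoI and ND4 have a single high mitochondrial library, and the 2 rRNAs are not higher in dmpnpaseKO mitochondria than in dmpnpaseKO cytosol.

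The makeup of the mitochondrial mRNAs did not follow the fraction labels in dmpnpaseKO larvae. Between the 2 mitochondrial replicates, 39.6% of the mitochondrial mRNA TPM would have to move from gene to gene to make them alike, and between the 2 cytosolic replicates 9.30%. Mitochondria replicate 2 differed from cytosol replicate 1 by 9.42% and from cytosol replicate 2 by 15.9%, whereas mitochondria replicate 1 differed from them by 41% and 46.7%. Mitochondria replicate 1 was closest to control mitochondria replicate 1, at 9.10%. So in makeup mitochondria replicate 2 lay with the dmpnpaseKO cytosol libraries, although its level of mitochondrial mRNA was the highest of all.

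The same contrast shows in single genes. The ratio of CoIII to CoI was 1.23 and 0.135 in dmpnpaseKO mitochondria, against 0.147 and 0.121 in dmpnpaseKO cytosol. Control libraries had ratios of 1.08 and 0.232 for mitochondria, against 0.532 and 0.408 for cytosol. CoI took 18.8% and 47.9% of the mitochondrial mRNA TPM in dmpnpaseKO mitochondria, against 42.8% and 40.1% in cytosol. ND6 took 0.25% and 1.38% in mitochondria, against 2.29% and 6.05% in cytosol. For ND6 the cytosolic libraries had the larger share in both replicates, and for CoI mitochondria replicate 1 stood apart from the other 3 libraries. Cyt-b took 10.99% and 9.98% in mitochondria, against 15.4% and 16.6% in cytosol, without overlap. Among neighbours on the minus strand, the ratio of ND5 to ND4 was 1.08 and 0.494 in mitochondria, against 0.311 and 0.342 in cytosol.

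The mitochondrial rRNAs gave no call. The 16S rRNA (mt:lrRNA, 12735 to 14058, minus strand) had 17209 and 63417 TPM in dmpnpaseKO mitochondria, against 85065 and 45594 TPM in cytosol. The 12S rRNA (mt:srRNA, 14131 to 14916, minus strand) had 15191 and 26696 TPM in mitochondria, against 53370 and 39426 TPM in cytosol. The 16S ranges overlapped, and for the 12S rRNA both mitochondrial libraries lay below both cytosolic ones (limma log2 difference −1.07, adjusted p = 0.228, and −1.34, adjusted p = 0.327, without cytosol replicate 2). ND1, which lies next to the 16S gene on the same strand, was 0.166 and 0.104 of the 16S TPM in mitochondria, against 0.0092 and 0.0115 in cytosol. The ranges of this ratio in the fractions lay far apart, unlike those of the rRNA itself.

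Of the 19 features of nuclear rRNA, 5 were higher in dmpnpaseKO mitochondria by limma and 0 lower, and 4 of the 5 were listed at 0 in cytosol replicate 2. Without that library 2 were higher, 5.8SrRNA-Psi:CR45854 and 28SrRNA-Psi:CR45860. The 5.8S pseudogene CR45854, which is one of the features used for scaling, had 163859 and 121567 TPM in mitochondria, against 41393 and 31137 TPM in cytosol (log2 difference 2.09, SE 0.55, limma adjusted p = 0.00274, and 1.84, adjusted p = 0.0479, without cytosol replicate 2). It was also higher in control mitochondria than in control cytosol, by 2.42 (adjusted p = 0.0467). The ratio of 5.8S to 28S pseudogene TPM was 0.316 and 0.287 in dmpnpaseKO mitochondria, against 0.0863 and 0.0516 in dmpnpaseKO cytosol, and the control libraries had 0.274 and 0.233 for mitochondria, against 0.130 and 0.0656 for cytosol. CR45860, at low level, had 26.9 and 21.1 TPM in dmpnpaseKO mitochondria, against 2.27 and 0 TPM in cytosol. Of the 8 scaling features, 2 were higher in both mitochondrial libraries than in both cytosolic ones and 5 lower in both, so their mean is a balance of opposite differences. Under scaling to summed nuclear TPM the difference of CR45854 turned negative.

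A pair of features called only with cytosol replicate 2 shows what a single listed 0 does at high levels. The 5.8S pseudogene CR45863 had 3413 and 5284 TPM in dmpnpaseKO mitochondria, against 2622 and 0 TPM in cytosol, and its log2 difference was 6.39 (limma adjusted p = 0.0455) with that library and 0.76 (adjusted p = 0.597) without it. The 5S pseudogene CR33363 had 2070 and 352 TPM in mitochondria, against 157 and 0 TPM in cytosol, and 6.10 (adjusted p = 0.039) became 2.50 (adjusted p = 0.132).

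Nuclear-encoded mRNAs were the main content of the calls. Of the 443 tested, 379 were higher in dmpnpaseKO mitochondria and 4 lower, and all 379 were listed at 0 in cytosol replicate 2, as were 408 of the 443. Without that library 360 were higher and 1 lower. The filter favours such calls, since 311 of the 443 averaged under 1 TPM over the other 6 libraries and passed only through the mitochondrial libraries in which they are high, and 307 of these 311 were called higher. Of the other 132 genes, 72 were called higher, and 78 without cytosol replicate 2. The counts of each list below are therefore a description of the genes that passed. Both mitochondrial libraries lay above cytosol replicate 1 for 421 of the 443 and below it for 8. Their median log2 difference was 2.42, or 2.02 without cytosol replicate 2, while in controls the median was 0.47. In controls the library medians of these genes were 0.81 and 0.57 for mitochondria and 0 and 0.20 for cytosol, in log2(scaled TPM + 1). At such low values the scale understates a change, so these medians do not compare the genotypes. The dmpnpaseKO median fell to 1.27 under median-of-ratios scaling. For comparison, 142 of the 443 exceeded the median of the mitochondrial mRNAs (2.46) without cytosol replicate 2. The leading nuclear genes differed too. Of the 20 highest in each library, the mitochondrial replicates shared 14, each shared 4 with cytosol replicate 1, and each shared 1 with cytosol replicate 2. FBgn0000556, which matched no symbol and was in no list, ranked first in both mitochondrial libraries. It had 167.5 and 114 TPM there, against 32.3 and 0 TPM in cytosol (log2 difference 4.61, and 2.13 without cytosol replicate 2). Its part of nuclear-encoded TPM was 1.41% and 1.95% in mitochondria, against 2.04% in cytosol replicate 1.

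Cytosolic ribosomal proteins were higher as a whole group. Of the large-subunit genes tested, 44 of 44 were higher in dmpnpaseKO mitochondria, and of the small-subunit genes 31 of 31, beside 81.1% of all genes tested. Without cytosol replicate 2 the counts were 43 and 30, beside 76.2%, and the median log2 differences were 2.73 and 2.92, beside 2.02 for all nuclear genes. RpL3, which lies at the peptidyl transferase centre, had 55.2 and 33.3 TPM in mitochondria, against 6.32 and 0 TPM in cytosol (2.64 without cytosol replicate 2, limma adjusted p = 0.00587). RpS4 had 54.2 and 33.6 TPM in mitochondria, against 4.97 and 0 TPM in cytosol (2.92, adjusted p = 0.00738). Both were higher in each mitochondrial library than in cytosol replicate 1. RpL41, the smallest ribosomal protein, had 94.6 and 23.5 TPM in mitochondria, against 14.1 and 0 TPM in cytosol, and its call was lost without cytosol replicate 2 (1.74, adjusted p = 0.163).

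Translation factors followed the same direction, with 10 of 10 called, beside 81.1% of all genes tested, and a median of 1.92 without cytosol replicate 2. The lists hold only genes matched by symbol, so a translation factor without a symbol is not counted. eEF2, which moves the ribosome along the mRNA, had 71.4 and 38.9 TPM in dmpnpaseKO mitochondria, against 5.43 and 0 TPM in cytosol (3.12, limma adjusted p = 0.00441). Of tubulin, cytoplasmic actin, ubiquitin and cytosolic chaperone genes, 6 of 6 were called, beside the same 81.1%, with a median of 1.93 without cytosol replicate 2. Cytoplasmic actin Act5C had 28.5 and 14.5 TPM in mitochondria, against 1.98 and 0 TPM in cytosol (2.87, adjusted p = 0.00504). The medians of these groups of cytosolic proteins lay close to the 2.02 of all nuclear genes.

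Most tested nuclear genes for mitochondrial proteins were called higher too, and without cytosol replicate 2 their list medians lay below that of all nuclear genes. Of complexes II to V and cytochrome c, 30 of 30 genes were higher in dmpnpaseKO mitochondria, beside 81.1% of all genes tested, and 28 without cytosol replicate 2, beside 76.2%, with a median of 1.86 beside 2.02 for all nuclear genes. The c-ring subunit ATPsynC had 39.0 and 22.8 TPM in mitochondria, against 10.1 and 0 TPM in cytosol (1.53, limma adjusted p = 0.0453). The catalytic subunit ATPsynbeta had 29.5 and 12.2 TPM in mitochondria, against 3.73 and 0 TPM in cytosol (2.13, adjusted p = 0.0182). Both were higher, ATPsynC by less than the typical nuclear gene.

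Mitochondrial carriers and pore genes were higher in 3 of 3 cases in both fits, beside 81.1% and 76.2%, with a median of 1.71 without cytosol replicate 2, among them the adenine nucleotide translocase sesB with 45.1 and 26.8 TPM in mitochondria, against 10.4 and 0 TPM in cytosol (1.71, limma adjusted p = 0.0308). TCA cycle and matrix genes had 6 of 7 called, close to the 81.1% of all genes tested, and 7 of 7 without cytosol replicate 2, beside 76.2%, with a median of 1.40. The exception with that library, the oxoglutarate dehydrogenase subunit Ogdh, had 5.32 and 2.47 TPM in mitochondria, against 0.911 and 19.4 TPM in cytosol. Citrate synthase (kdn) had 12.7 and 9.52 TPM in mitochondria, against 3.31 and 0 TPM in cytosol (log2 difference 1.53 without cytosol replicate 2). A single complex I gene passed the filter, ND-MLRQ, with 7.18 and 1.15 TPM in mitochondria, against 1.35 and 0 TPM in cytosol. Its call was lost without cytosol replicate 2 (0.84). Both kdn and ND-MLRQ passed the filter only through the dmpnpaseKO mitochondria libraries, so their values are a description.

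Digestive enzymes of the gut, which are secreted proteins, had the largest median among the lists tested without cytosol replicate 2. Of 19 tested, 19 were higher in dmpnpaseKO mitochondria in both fits, beside 81.1% and 76.2% of all genes tested, and the median without cytosol replicate 2 was 3.82 (range 1.38 to 4.65). betaTry, a trypsin, had 78.5 and 31.6 TPM in mitochondria, against 1.04 and 0 TPM in cytosol (4.65 without cytosol replicate 2, limma adjusted p = 0.00351). The Jonah serine protease Jon65Aiv had 80.5 and 35.7 TPM in mitochondria, against 2.34 and 0 TPM in cytosol (4.07, adjusted p = 0.00574). In both, each mitochondrial library was more than 10 times above cytosol replicate 1. Jon99Cii had 62.7 and 16.1 TPM in mitochondria, against 0.469 and 0 TPM in cytosol (4.48, adjusted p = 0.00513), and Jon66Ci had 39.8 and 14.8 TPM, against 0.132 and 0 TPM (4.46, adjusted p = 0.00353). The uncharacterised genes CG9757 and CG7299, also among the 10 largest rises, had 39.98 and 37.4 TPM, against 0.674 and 0 TPM, and 42.3 and 18.1 TPM, against 0.589 and 0 TPM. Each fraction was made from mixed tissues, so the cells that gave this RNA cannot be told apart. The cause of these differences was not tested.

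Of the muscle contractile genes, 9 of 10 were called higher, close to the 81.1% of all genes tested. Without cytosol replicate 2 the count was 10 of 10, beside 76.2%, at a median of 2.97, above the 2.02 of all nuclear genes. Myosin heavy chain (Mhc) had 25.3 and 11.1 TPM in dmpnpaseKO mitochondria, against 0.446 and 0 TPM in cytosol (3.62, limma adjusted p = 0.00353). The muscle actin Act57B had 66.9 and 35.9 TPM in mitochondria, against 2.03 and 45.4 TPM in cytosol, so it was called only without cytosol replicate 2 (4.08, adjusted p = 0.0037). The cytosolic replicates differed for Act57B by more than the fractions did.

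Cuticle proteins were mixed, with 7 of 13 called, beside 81.1% of all genes tested. Their median without cytosol replicate 2 was 2.30 (range 0 to 4.22). Among those not called, Lcp3 had 0.555 and 0.497 TPM in dmpnpaseKO mitochondria and 0 in both dmpnpaseKO cytosol libraries. Control mitochondria had 37.4 and 17.4 TPM of it, so in dmpnpaseKO larvae Lcp3 was too low to compare the fractions. Cpr65Ax2 had 37.5 and 5.2 TPM in dmpnpaseKO mitochondria, against 0.654 and 0 TPM in cytosol, and its call was lost without cytosol replicate 2 (3.22, limma adjusted p = 0.144). Larval serum and fat body genes had 0 of 5 called by limma in either fit, 0 with an unadjusted p under 0.05, and a median of 0.004. The list's most abundant member, apolpp, which encodes the lipid carrier of the haemolymph, had 33.9 and 26.1 TPM in mitochondria, against 73.4 and 27.3 TPM in cytosol, and the serum protein Lsp1gamma had 0.046 and 0 TPM, against 0.047 and 25.1 TPM. Both mitochondrial libraries lay above cytosol replicate 1 for 1 of the 5 genes and below it for 2, beside 421 and 8 of all 443 nuclear genes. With most of the list near 0, these counts and the median do not show whether the fractions differ for it.

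Of the remaining lists, glycolytic genes had 7 of 8 called in each fit, close to the 81.1% and 76.2% of all genes tested (median 1.64 without cytosol replicate 2), with Gapdh1 at 21.7 and 10.9 TPM in dmpnpaseKO mitochondria, against 3.40 and 0 TPM in cytosol (1.94, limma adjusted p = 0.00955). Endoplasmic reticulum genes had 4 of 4 called, beside 81.1% of all genes tested (median 1.66 without cytosol replicate 2). Calreticulin (Calr) had 9.24 and 3.62 TPM, against 0.565 and 0 TPM (2.13 without cytosol replicate 2). Calr passed the filter only through the dmpnpaseKO mitochondria libraries, so its values are a description. One of the 4 endoplasmic reticulum genes, crc, encodes a transcription factor and entered the list through a shared older name. Basement membrane genes, made mostly by fat body and haemocytes, had 1 of 3 called, beside 81.1%, and 0 without cytosol replicate 2 (median 0.60). Col4a1, a type IV collagen chain, had 15.7 and 12.4 TPM in mitochondria, against 9.26 and 0 TPM in cytosol (0.60, adjusted p = 0.49).

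**Figure D4:**
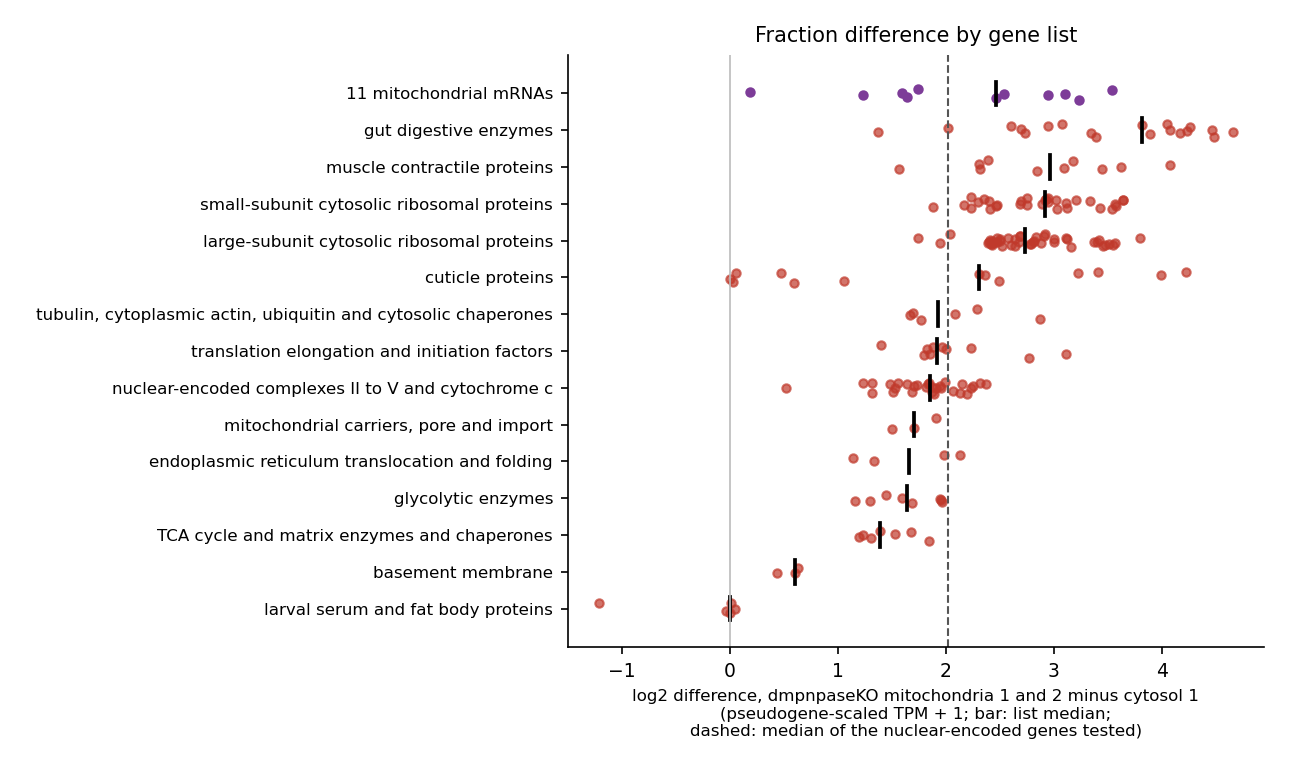
Log2 difference between dmpnpaseKO mitochondria (replicates 1 and 2) and dmpnpaseKO cytosol replicate 1 for each tested gene, by gene list, on the scale of log2(pseudogene-scaled TPM + 1). Points are genes, black bars list medians, and the dashed line the median of the nuclear-encoded genes tested (2.02). Digestive enzymes lie highest (3.82), and TCA cycle genes (1.40) and basement membrane genes (0.60) lie below the line. Larval serum and fat body genes have a median near 0 with apolpp lying below it. Of that list, Lsp1beta and Lsp1gamma were at or near 0 TPM in the libraries drawn.

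Because the summed share of nuclear-encoded RNA was higher in the mitochondrial fraction, its makeup was compared as well. Each gene was expressed as its share of the library's nuclear-encoded TPM in ppm, with that sum set to 1000000. In all, 719 genes with an average of 200 ppm or more over mitochondria replicates 1 and 2 and cytosol replicate 1 were tested with limma on log2(ppm + 100), without cytosol replicate 2. The dmpnpaseKO cytosol is then a single library whose spread is taken from the other groups. Of the 719 genes, 350 had a larger share in both mitochondrial libraries than in cytosol replicate 1 and 300 a smaller one, with a median log2 difference of 0.12. The threshold was passed by 6 genes upward (0.834%) and 5 downward (0.695%), while 181 had an unadjusted p under 0.05. An average of 200 ppm was reached only through the mitochondrial libraries by 174 of the genes and only through cytosol replicate 1 by 104, and all 6 and all 5 calls fall in these sets, so the calls and counts in makeup are a description. The calls changed with single libraries, since without control cytosol replicate 1 or 2 they were 0 and 0, without control mitochondria replicate 1 they were 56 and 32, without control mitochondria replicate 2 they were 54 and 29, without dmpnpaseKO mitochondria replicate 1 they were 0 and 2, and without dmpnpaseKO mitochondria replicate 2 they were 3 and 4.

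Digestive enzymes of control larvae made up 6.37% and 2.37% of nuclear-encoded TPM in the mitochondrial libraries, against 0.659% and 0.205% in the cytosolic ones, without overlap. In dmpnpaseKO larvae they made up 5.49% and 3.68% in mitochondria, against 0.494% in cytosol replicate 1. All 23 tested had a larger share in both mitochondrial libraries, beside 350 of all 719 genes, with a median log2 difference of 2.51. Those that passed the threshold were alphaTry, Jon74E and Mal-A3. The trypsin alphaTry had 2946 and 2234 ppm in mitochondria, against 151 in cytosol (log2 difference 3.41), and Jon74E had 322 and 357, against 26.4 (log2 difference 1.797). The maltase Mal-A3 had 371 and 353, against 0. The other 3 genes called upward were also listed at 0 in cytosol replicate 1. Obp56a, an odorant-binding protein, had 1103 and 623 ppm in mitochondria, CG11131 had 505 and 601, and CG45089 had 444 and 391.5. Muscle genes had a larger share for 11 of 11, beside 350 of all 719, at a median of 1.56, and none passed the threshold. They made up 1.78% and 1.82% in mitochondria, against 0.421% in cytosol replicate 1. Muscle genes of control larvae made up 2.43% and 2.33% of nuclear-encoded TPM in the mitochondrial libraries, against 0.391% and 0.492% in the cytosolic ones, without overlap.

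Ribosomal protein genes made up 24.8% and 24.9% of nuclear-encoded TPM in dmpnpaseKO mitochondria, against 15.8% in cytosol replicate 1. Of the 77 tested, 66 had a larger share in both mitochondrial libraries and 2 a smaller one, beside 350 and 300 of all 719 genes. Their median was 0.68, beside 0.12 for all 719, and none passed the threshold. The control libraries held 9.32% and 10.1% for mitochondria, against 2.18% and 2.16% for cytosol. The same 350 and 300 of all 719 stand beside the counts of the next lists. For cuticle genes 8 of 9 had a larger share and 1 a smaller one (median 1.81, none past the threshold). Translation factors had 13 of 17 above and 3 below (median 0.40, none past the threshold). Complexes II to V made up 2.69% and 2.60% in mitochondria, against 2.68% in cytosol replicate 1, with 20 of 33 genes above and 7 below (median 0.26).

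For other lists more genes had a smaller than a larger share, against a single cytosolic library and beside 300 smaller and 350 larger of all 719. Of 13 TCA cycle and matrix genes, 0 had a larger share in both mitochondrial libraries and 11 a smaller one (median −0.62), and of 4 carriers and pore genes 0 and 3 (median −0.72). Of 12 complex I genes 3 were above and 8 below (median −0.21), and of 10 glycolytic genes 2 and 8 (median −0.35). None of these genes passed the threshold by limma, and 3 of them had an unadjusted p under 0.05. Basement membrane genes had a smaller share for 4 of 4 (median −1.62), at 0.301% and 0.406% in mitochondria, against 1.07% in cytosol replicate 1. Larval serum and fat body genes made up 0.298% and 0.454% in mitochondria, against 4.64% and 3.51% in the 2 cytosolic libraries. A single gene, apolpp, made up 0.286% and 0.446% in mitochondria, against 4.62% and 1.83% in cytosol, and Lsp1gamma another 1.68% in cytosol replicate 2. For the list in control larvae the ranges overlapped (mitochondrial libraries 3.78% and 3.94%, cytosolic libraries 0.927% and 5.56%). Endoplasmic reticulum genes were split 3 and 3, and cytoskeletal and chaperone genes 4 and 3.

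**Figure D5:**
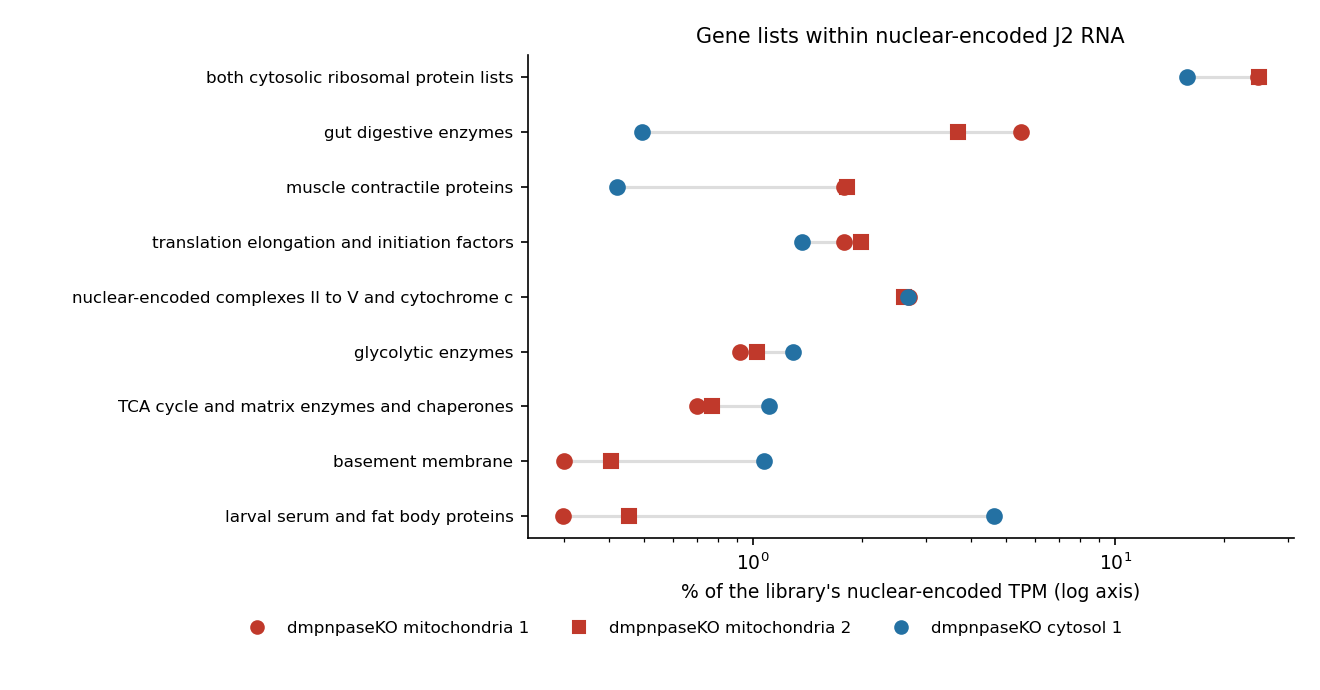
Share of nuclear-encoded TPM (%, log axis) taken by each gene list in dmpnpaseKO mitochondria replicates 1 and 2 and in dmpnpaseKO cytosol replicate 1. Points are libraries and the grey line spans the 3 of them. Ribosomal proteins, digestive enzymes and muscle genes have larger shares in both mitochondrial libraries, basement membrane and larval serum genes smaller ones, and complexes II to V nearly equal ones (2.69%, 2.60% and 2.68%).

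Few nuclear genes were higher in the cytosol. Arc1, whose protein forms capsids that carry RNA between cells (chromosome 2R), had 8.56 and 9.93 TPM in dmpnpaseKO mitochondria, against 115.4 and 59.9 TPM in dmpnpaseKO cytosol, without overlap. Control mitochondria had 1.72 and 3.33 TPM, against 350 and 137 TPM in control cytosol. It was the 1 gene called lower without cytosol replicate 2 (−3.44, SE 0.96, limma adjusted p = 0.0141) and did not pass with it (−2.93, SE 1.82, adjusted p = 0.15). In makeup it took 723 and 1694 ppm of nuclear-encoded TPM in mitochondria, against 72625 in cytosol replicate 1, where it was the leading nuclear gene (−5.90, adjusted p = 0.0749). The second there was apolpp, with 2864 and 4459 ppm in mitochondria, against 46210 in cytosol replicate 1 (−3.66, adjusted p = 0.0985).

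The 4 genes called lower with cytosol replicate 2 in the fit were udd, CG30289, Rsf1 and SerT, the last named after its values were seen. The count was 0 without dmpnpaseKO mitochondria replicate 1 or replicate 2, 24 without dmpnpaseKO cytosol replicate 1, 1 without either control mitochondria library and 7 without control cytosol replicate 2. udd, which encodes a factor of RNA polymerase I transcription, had 0.336 and 0.458 TPM in dmpnpaseKO mitochondria, against 2.87 and 88.5 TPM in dmpnpaseKO cytosol, and the values were 0.050 and 0.563 TPM in control mitochondria, against 5.87 and 81.0 TPM in control cytosol. It lay lower in mitochondria in every library of both genotypes (−3.61, SE 1.50, limma adjusted p = 0.0366, and −1.40, adjusted p = 0.431, without cytosol replicate 2). The other 3 were high in cytosol replicate 2 alone. CG30289 had 0.149 and 0.072 TPM in mitochondria, against 0.0732 and 74.8 TPM in cytosol, Rsf1 had 0.351 and 0.166 TPM, against 0.104 and 61.6 TPM, and the serotonin transporter SerT had 0.054 and 0 TPM, against 0.0211 and 19.4 TPM. Of the 35 nuclear genes above 0 in all 4 dmpnpaseKO libraries, 30 were higher in both mitochondrial libraries than in cytosol replicate 1, while 29 were higher in cytosol replicate 2 than in both mitochondrial libraries.

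In makeup, the 5 genes called with a smaller mitochondrial share were all at low level. CG43354 was listed at 0 in both dmpnpaseKO mitochondria libraries, against 1090 ppm in cytosol replicate 1 alone. CR41597 had 34.4 and 0 ppm in mitochondria, against 1100 in cytosol replicate 1 (log2 difference −3.37), and CG5966 had 34.4 and 104, against 941 (−2.65). In TPM each was below 2 in every dmpnpaseKO library and 0 in cytosol replicate 2. CG10799 and the C-type lectin lectin-24A were called with log2 differences of −1.94 and −1.62. All 5 reached the average of 200 ppm only through cytosol replicate 1.

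Whether the fractions differed more in dmpnpaseKO than in control larvae was tested by the difference of the 2 fraction contrasts in the same limma fit. The fraction contrast of the controls itself called 4 genes higher in mitochondria and 1 lower. The difference was larger in dmpnpaseKO for 145 genes (30.5%) and smaller for 3 (0.632%), and all 145 were listed at 0 in dmpnpaseKO cytosol replicate 2. Without that library the counts were 57 and 2, with 56 of the 57 among the 145. They were 0 and 2 without control mitochondria replicate 1, 0 and 3 without control mitochondria replicate 2, 0 and 1 without control cytosol replicate 2, 8 and 2 without control cytosol replicate 1, 73 and 1 without dmpnpaseKO mitochondria replicate 1, and 362 and 28 without dmpnpaseKO cytosol replicate 1. With unscaled TPM they were 0 and 0.

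The filter favours calls of a larger difference, since 311 of the 443 nuclear-encoded genes passed it only through the dmpnpaseKO mitochondria libraries. The counts of each list are therefore a description. With a pseudocount of 0.1 the counts over all genes were 3 larger and 1 smaller. Beside the 30.5% of all genes tested, the difference was called larger in dmpnpaseKO for 19 of 44 large-subunit and 12 of 31 small-subunit ribosomal protein genes. It was also called larger for 16 of 30 genes of complexes II to V, 9 of 19 digestive enzymes and 7 of 10 translation factors, and for cuticle proteins it was larger for 5 and smaller for 2 of 13. Without dmpnpaseKO cytosol replicate 2 the counts larger were 4, 4, 3, 5, 4 and, for cuticle proteins, 3, with 2 smaller. None of the 11 mitochondrial mRNAs passed limma's test (smallest adjusted p = 0.294, or 0.224 without that library), and 0 had an unadjusted p under 0.05 in either fit. Their fraction difference had a median of 2.52 in dmpnpaseKO and 4.596 in control larvae, and it was smaller in dmpnpaseKO for 10 of the 11. Without dmpnpaseKO cytosol replicate 2 it was smaller for all 11, beside 49 of all 475 genes tested. The median of dmpnpaseKO minus control was then −2.07 for these mRNAs and 1.51 for all genes tested. The 3 genes with a smaller fraction difference in dmpnpaseKO were the cuticle genes Lcp2 and Lcp9 and the odorant-binding protein gene Obp99b, which stood at or near 0 in all 4 dmpnpaseKO libraries. Lcp2 had 0.051 and 0 TPM in dmpnpaseKO mitochondria and 0 in both cytosol libraries, against 7.93 and 5.40 TPM in control mitochondria and 0.287 and 0 TPM in control cytosol. Lcp2 and Lcp9 were named after their values were seen, as was Obp99b.

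The machinery of RNA interference and of mitochondrial RNA turnover was at the low end in these libraries, and no gene of these lists reached the filter. Suv3, the helicase partner of PNPase, had 0.163 and 0.0554 TPM in dmpnpaseKO mitochondria, against 0.0456 and 0 TPM in dmpnpaseKO cytosol. Dcr-2, which cuts long double-stranded RNA into small interfering RNAs, had 0.266 and 0.205 TPM in mitochondria, against 0.0534 and 0 TPM in cytosol. AGO2, which carries small interfering RNAs, had 0.920 and 0.492 TPM in mitochondria, against 0.149 and 0 TPM in cytosol, and its partner r2d2 had 0.226 and 0.0721 TPM, against 0.0456 and 0 TPM. Each was higher in both mitochondrial libraries than in cytosol replicate 1, as most nuclear genes were. The mitochondrial transcription factor TFAM had 0.534 and 0.490 TPM in mitochondria and was listed at 0 in both cytosol libraries. Mitochondrial ribosomal protein genes made up 0.279% and 0.258% of nuclear-encoded TPM in mitochondria, against 0.169% in cytosol replicate 1, and antimicrobial peptide genes 0.00683% and 0%, against 0.0115%, with none of either list tested.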

How the data were processed

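RNA from mitochondrial and cytosolic fractions of dmpnpaseKO and control larvae was captured with J2 and sequenced as directional paired-end libraries. The authors assigned reads with salmon 0.11.3 to the BDGP6 cDNA set (release 94) and deposited TPM per gene, not scaled on rRNA pseudogenes. How transcripts were summed to genes and whether strand was used are not given in the sources used here. Libraries were grouped by label, and 0 value columns had no library.

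From the deposited TPM, a scaling factor per library was taken as the mean of 8 rRNA pseudogenes named in the paper's methods, relative to its average over libraries. log2(scaled TPM + 1) was fitted with limma 3.58.1 in R 4.3.3 (4 group means, all 8 libraries, intensity trend) to the 475 genes averaging 1 TPM or more. Shares within nuclear-encoded TPM were fitted for 7 libraries with a pseudocount of 100 ppm. The threshold was a Benjamini-Hochberg adjusted p of 0.05, and library values were compared by the exact permutation test. The fits were tested on simulated data. Figures were drawn with matplotlib 3.10.9.

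TPM carry no depth, so no intervals or floors are given. Symbols matched 13746 of 13970 identifiers, and positions are from the Ensembl 115 annotation of the BDGP6 assembly. The libraries compared, the gene lists and the rule for named genes were chosen with earlier results of these data known. The rule names the mitochondrial genes, the 8 pseudogenes, the 10 largest rises and falls past the threshold with both fractions separate and a value above 0 in dmpnpaseKO cytosol replicate 1, the 10 largest and smallest differences among nuclear genes above 0 in all 4 dmpnpaseKO libraries, the largest composition calls, the 3 most abundant members of each list, and genes of RNA interference and mitochondrial RNA turnover. Alternatives were other scalings (unscaled, geometric mean, median of ratios over 31 genes, nuclear sum), pseudocounts, filters, eBayes without trend, a fit of the 4 dmpnpaseKO libraries, a replicate block, and leaving out every library in turn.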

Additional observations from a re-analysis of the deposited data

Results flagged for a closer look

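The fraction difference was larger in dmpnpaseKO than in control larvae for 145 genes and smaller for 3, by the difference of the contrasts in the limma fit over 475 genes. The following values are that difference, dmpnpaseKO minus control, on the log2(scaled TPM + 1) scale, for the named genes that passed. For all of them but the cuticle gene Cpr65Ax2, both dmpnpaseKO mitochondria libraries lay above the other 6 libraries.

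It was 4.03 for betaTry (limma adjusted p = 0.04), a trypsin, and 3.55 (adjusted p = 0.0485) without dmpnpaseKO cytosol replicate 2. It was 3.93 for alphaTry, another trypsin, 2.81 for Obp56a, 2.26 for CG11131, 1.81 for CG45089 and 2.29 for crc. These 5 genes reached an average of 1 TPM only through the dmpnpaseKO mitochondria libraries, so their differences are a description, and that of crc no longer passed without dmpnpaseKO cytosol replicate 2 (1.795). For Cpr65Ax2 it was 5.94 (limma adjusted p = 0.04), and 5.60 (adjusted p = 0.0969) without that library. That gene had 37.5 and 5.2 TPM in dmpnpaseKO mitochondria and 0.654 and 0 TPM in dmpnpaseKO cytosol, against 4.84 and 0.794 TPM in control mitochondria and 2.26 and 40.5 TPM in control cytosol, so control cytosol replicate 2 alone was high among the controls.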

How the results depend on the processing

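The 385 genes higher and 4 lower in dmpnpaseKO mitochondria became 221 and 9 with median-of-ratios scaling, 4 and 0 with nuclear-sum scaling, 5705 and 0 with no filter, 115 and 1 with a mean of at least 5 TPM, and 647 (higher) with the filter on the dmpnpaseKO libraries. The count lower was 11 unscaled, 1 with a pseudocount of 10 or without the trend, and 8 with the dmpnpaseKO libraries alone. Leaving out 1 library gave 311 to 399 higher and 0 to 24 lower. The nuclear median of 2.42 was 1.27 with median of ratios, 1.10 with the nuclear sum, 4.61 and 0.63 with pseudocounts of 0.1 and 10, and 3.71 at 5 TPM (2.02 to 2.82 leaving out a library).

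The difference between genotypes, 145 higher and 3 lower, became 0 and 0 unscaled, with the nuclear sum, at 5 TPM and without the trend, 1 and 1 with median of ratios, 3 and 1 with a pseudocount of 0.1, 297 and 6 with 10, 2155 and 12 with no filter, and 435 and 1 with the dmpnpaseKO filter. Leaving out 1 library gave 0 to 362 and 1 to 28. The makeup calls, 6 higher and 5 lower, became 0 and 51 with no filter, 0 and 0 without the trend, 1 and 0 with all 8 libraries, 18 and 1 with a pseudocount of 10, 40 and 59 with 1000, and 0 and 0 at 1000 ppm, and 34 lower at 50. Leaving out 1 library gave 0 to 56 and 0 to 32, and a group left with 1 library is assumed to vary like the others.

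Replicate numbers are not said to mark a shared origin, and the deviations of dmpnpaseKO mitochondria and cytosol correlated at 0.018 over 475 genes. With the number as a block the counts were 389 and 7, for the difference between genotypes 234 and 5, and for makeup 0 and 2.

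Library differences kept their direction with each library left out, at 1.58 to 3.69 for the mitochondrial mRNA medians and 2.82 to 3.44 for log2 mRNA to rRNA. The ranges were 2.61 to 15.3 percentage points for mitochondrial mRNA and 0.432 to 1.03 for nuclear-encoded RNA. Nuclear-sum scaling took the difference of the mitochondrial mRNA medians from 2.63 to 0.086.

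Nuclear-sum scaling turned the direction of CoI (−0.78), Cyt-b (−0.92), ND2 (−1.26), ND5 (−0.0228), ND4 (−1.18), 28SrRNA-Psi:CR45851 (−1.57), 5.8SrRNA-Psi:CR45854 (−0.46), Act57B (−0.18), CG18180 (−0.81), FBgn0027571 (−1.35), shot (−0.52), Ald1 (−1.93), ACC (−1.45), Lsp1beta (−0.0196) and SPARC (−0.0422). Leaving out 1 library turned it within these ranges: CoI −0.027 to 3.57, ND2 −0.84 to 3.40, ND6 −2.79 to 1.93, mt:lrRNA −1.92 to 0.32, ND4 −0.29 to 3.02, 28SrRNA-Psi:CR40596 −0.31 to 0.28, CG18180 −2.04 to 4.42, Ald1 −0.67 to 1.60, ACC −0.47 to 1.38, CycG −1.17 to 1.06, Ogdh −1.97 to 1.30, CG6191 −2.89 to 0.10, AdipoR −4.08 to 0.83, Cth −4.19 to 0.86, mod(mdg4) −4.81 to 0.42, CG15293 −4.99 to 0.24, Rsf1 −5.47 to 0.18, Ntf-2 −5.87 to 0.52, CG30289 −5.91 to 0.047 and apolpp −1.21 to 0.28. The causes were not tested. No list median could be given for TCA cycle genes at 5 TPM, complex I at 1000 ppm, or endoplasmic reticulum genes at either. TPM hold no depth, so what depth limits is unknown.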
